A study of Mus musculus with 6 samples.

Results

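Samsn1 and Lcp2 encode adaptor proteins of blood cells, and they were measured here in endothelial cells (ECs) sorted from mouse lungs with breast cancer metastases. Measured together with them were 7 leukocyte genes, Ptprc, Laptm5, Coro1a, Lcp1, Was, Vav1 and Tyrobp. They are called pan-leukocyte genes below, a label that does not mean that every leukocyte type expresses each of them. The genes were taken by symbol, with every probe set that carries that symbol alone, which gave 19 probe sets for 9 genes out of 45101 probe sets and 18194 genes on the arrays. Lcp2 and Samsn1 had been selected on their measured levels, which were lower in shTNC than in shControl ECs in the comparison described below, and the other 7 as a measure of leukocyte RNA. The question was whether Lcp2 and Samsn1 follow these leukocyte genes.

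One group of ECs came from NSG mice injected with MDA-MB-231-LM2 cells expressing a short hairpin RNA against TNC (shTNC), and the others from mice that received the same cells with a control hairpin (shControl). MDA-MB-231-LM2 cells are a subline of human MDA-MB-231 breast cancer cells selected for growth in the lung, and TNC encodes the matrix protein tenascin C. The lungs were taken 3 weeks after injection into the blood, from mice given as 6 to 8 weeks old in the deposited design text, and each group had 3 samples with 1 array each. CD31-positive cells were sorted after exclusion of cells with CD45, CD11b, EpCAM, CD140a or CD140b and of GFP-positive cancer cells. NSG mice lack mature lymphocytes and natural killer cells but keep myeloid cells. The hairpin acts in the human cancer cells, which the sort removed. The authors reported less lung colonization by cancer cells with TNC knockdown. The groups may therefore also differ in the amount of metastasis per lung, whose part in the values below was not tested. Which TNC hairpin was used, and whether each sample came from 1 mouse, was not given in the sources used here, so the spread between arrays may hold less than the spread between animals.

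SLP-76, the product of Lcp2, is a scaffold in T cells, mast cells, macrophages and platelets. Once a receptor has activated a Syk family kinase, SLP-76 is phosphorylated and gathers Vav1, Nck and phospholipase C gamma, which leads to calcium release and to changes in actin. Samsn1, also called HACS1, belongs to the SLY family of adaptors with SH3 and SAM domains and dampens B cell activation. Among the leukocyte genes, Ptprc and Tyrobp act at the membrane, Laptm5 at lysosomes, and Coro1a, Lcp1, Was and Vav1 on the actin skeleton.

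Levels are log2 expression values per probe set, normalized between arrays, and a difference is the mean of shTNC minus that of shControl. A gene is described first by its lead probe set, the one with the highest mean over the 6 arrays. Olfactory receptor genes are mostly silent outside the nose, and 43 of their probe sets served to set a background level of 7.48 (their percentile 95), and a probe set with a lower mean was called near background. Of the 19 probe sets, 12 were above that level, and 7 of the 9 genes had a lead probe set above it. Levels of different probe sets were not compared. The arrays fell apart along a first principal component that held 36.6% of the variance, with 17.3, 16.1 and 21.1 in shTNC and -11.1, -43.6 and 0.25 in shControl ECs, so that shControl replicate 2 stood apart. The 3′ minus 5′ signal of Actb, a measure of RNA integrity, was 0.22, 0.27 and 0.20 in shTNC and 0.29, 0.28 and 0.28 in shControl ECs. It did not overlap between groups, whereas that of Gapdh did, with 0.58, 0.56 and 0.50 in shTNC and 0.56, 0.57 and 0.56 in shControl ECs. The part of the Actb signal in the values below was not tested. The EC marker Pecam1 was at 13.94 to 13.97 in shTNC and 13.92 to 14.03 in shControl ECs, a difference of -0.03 ± 0.08, and Itgam, the gene for CD11b, was near background. Ptprc is described below, and the other genes of the sort were above background. Epcam averaged 7.64 in shTNC and 7.70 in shControl ECs, a difference of -0.06 ± 0.14. The lead probe sets of Pdgfra and Pdgfrb, the genes for CD140a and CD140b, differed by -0.01 ± 0.25 and -0.01 ± 0.17, but other probe sets above background gave -0.47 ± 0.23 for Pdgfra and 0.78 ± 0.17 for Pdgfrb.

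To compare the start regions of both adaptor genes, 300 bases of each promoter were read from RefSeq on mouse build GRCm38.p6, from 250 bases before the transcription start to 50 bases after it. Of the 9 genes, 8 had such a window, with 11 windows in all. The sequences are written 5′ to 3′ on the strand of the gene. Capitals mark the letters GAGGAA, the core of the PU box bound by the myeloid and B cell factor PU.1 (Spi1), or TTCCTC, the same letters on the opposite strand. These letters were chosen after the sequences had been seen.

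Lcp2: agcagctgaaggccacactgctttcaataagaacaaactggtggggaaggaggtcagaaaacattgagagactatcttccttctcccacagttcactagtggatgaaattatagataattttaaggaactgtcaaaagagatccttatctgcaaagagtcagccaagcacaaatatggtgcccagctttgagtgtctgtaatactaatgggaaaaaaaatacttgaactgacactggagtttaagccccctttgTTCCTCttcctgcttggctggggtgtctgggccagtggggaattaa

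Samsn1: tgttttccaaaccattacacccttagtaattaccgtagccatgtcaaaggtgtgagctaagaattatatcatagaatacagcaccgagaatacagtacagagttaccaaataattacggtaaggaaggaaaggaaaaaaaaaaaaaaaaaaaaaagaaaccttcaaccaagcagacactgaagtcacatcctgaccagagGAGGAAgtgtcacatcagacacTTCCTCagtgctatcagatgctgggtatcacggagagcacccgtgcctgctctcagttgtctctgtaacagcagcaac

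The Lcp2 window lies at chr11:34046678-34046977 on the forward strand and held 1 match, on the opposite strand of the gene, whose first base is base 5 after the start. The Samsn1 window lies at chr16:75909217-75909516 on the reverse strand and held 2 matches, 1 on each strand, whose first bases lie 50 and 28 bases before the start. A match was also present for Laptm5, Was, Vav1 and 1 of the 2 windows of Ptprc, whereas the windows of Coro1a and Lcp1 had none. In all, 6 of the 11 windows held the letters, as did 28.3% of all 32851 promoters of the same length. Since the letters were chosen on these windows, nothing is read from the difference. A match describes the letters of the window, and neither binding nor use of the site was measured.

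Lcp2 (1418641_at; gene at chr11:34046928-34092281) had levels of 8.62, 8.77 and 8.75 on the 3 shTNC arrays, against 9.95, 9.46 and 9.08 on the 3 shControl arrays. All 3 shTNC arrays lay below every shControl array, with 0.31 between the nearest arrays of both groups. The shTNC arrays were close to each other, whereas the shControl arrays were spread out, with means of 8.71 ± 0.08 in shTNC and 9.50 ± 0.44 in shControl ECs (SD, n = 3 each). The difference was -0.78 ± 0.20 on the log2 scale (limma's SE), a level 0.581-fold that of shControl. Of 13436 genes above background, 16 had a lower difference. In such bulk samples, fewer cells of a type and less RNA per cell cannot be told apart. The size of the difference leaned on the shControl arrays: it was -0.56 without shControl replicate 1, the highest array, and -0.99 without shControl replicate 3, the lowest of that group. The second Lcp2 probe set (1418642_at) was near background, with 6.40, 6.36 and 6.39 in shTNC and 6.54, 6.51 and 6.49 in shControl ECs and a difference of -0.13 ± 0.08. Averaging both Lcp2 probe sets gave -0.46.

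Samsn1 (1421457_a_at; gene at chr16:75858794-75909266) had levels of 9.71, 10.07 and 10.29 in shTNC ECs, against 11.10, 10.57 and 11.17 in shControl ECs. Again all shTNC arrays were below all shControl arrays, with 0.28 between the nearest. The means were 10.02 ± 0.29 in shTNC and 10.94 ± 0.33 in shControl ECs (SD, n = 3 each), so that, unlike for Lcp2, the spread was alike in both groups. The difference was -0.92 ± 0.19, a level 0.528-fold that of shControl, and 4 of the 13436 genes had a lower one. Leaving out 1 array at a time kept it between -1.11 and -0.77. Without shControl replicate 2, which stood apart, the difference was -0.80 for Lcp2 and -1.11 for Samsn1. Among genes above background, 12.9% had groups that did not overlap with shTNC lower, and 8.51% with shTNC higher. Since both genes were chosen for this contrast, their values are given as a description with no test. The difference of Samsn1 minus that of Lcp2 was -0.14 ± 0.34 (SE from the spread between arrays).

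**Figure D1:**
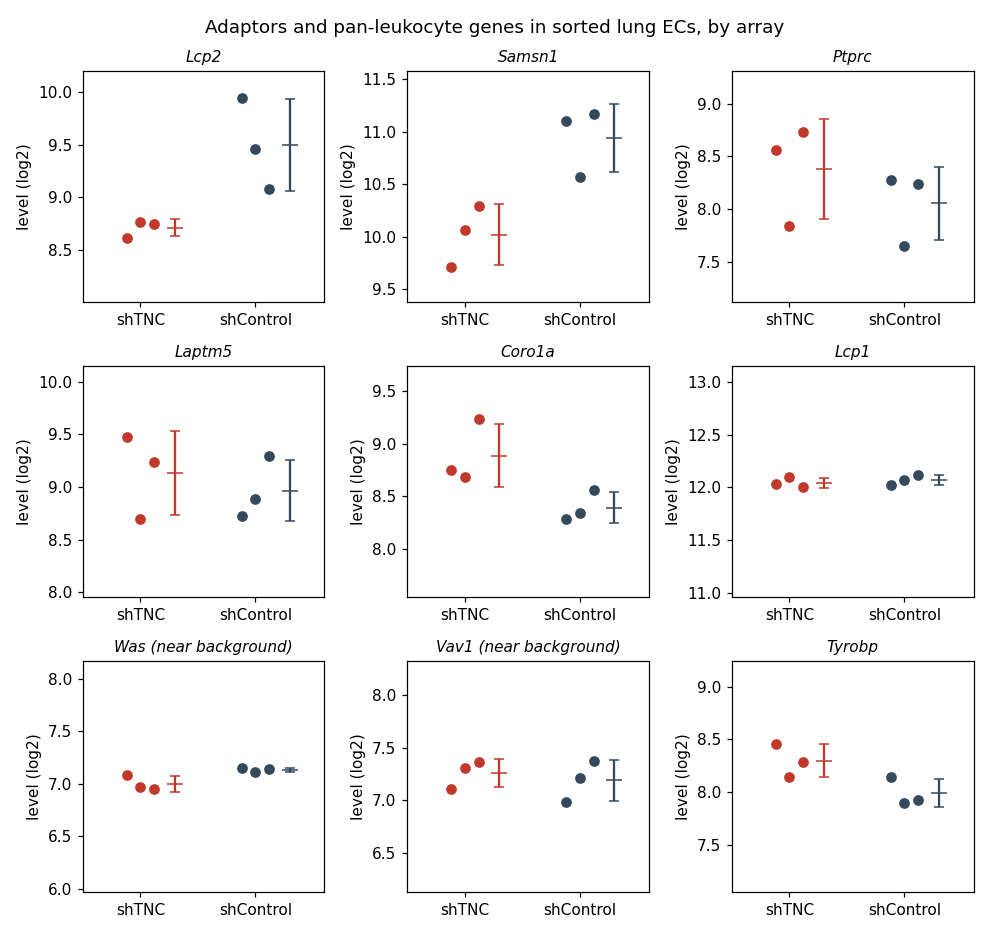
Levels (log2) of the 9 genes on each array, 1 panel per gene with its lead probe set and the same log2 span; points are arrays in replicate order, and the bar beside them is the mean ± SD of 3 arrays. The 3 shTNC arrays sit below all shControl arrays for Lcp2 and Samsn1, and above them for Coro1a.

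The pan-leukocyte genes did not as a group share the direction of both adaptors. Of the 7, 5 had a higher mean in shTNC ECs and 2, Lcp1 and Was, a lower one, where 58.3% of all genes were below 0. Of the 7, 5 were above background, Lcp1 among them, and Was was near background. The difference had a median of 0.17 over all 7 genes, against -0.03 over all 18194 genes, and of 0.31 over the 5 above background. Without shTNC replicate 2 the median of the 7 was 0.38, without shControl replicate 3 it was 0.28, and without shControl replicate 1 it was 0.05. Without shControl replicate 2, it was 0.12.

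At the cell surface, Ptprc, the CD45 phosphatase whose protein was used to exclude leukocytes during the sort, had levels of 8.56, 7.84 and 8.73 in shTNC and 8.27, 7.65 and 8.23 in shControl ECs. The groups overlapped, with replicate 2 the lowest array in each, and the difference was 0.32 ± 0.25, or between 0.12 and 0.59 with 1 array left out. The second Ptprc probe set was near background, with a difference of -0.03 ± 0.10. Tyrobp, also called DAP12, passes signals from activating receptors to the kinase Syk. It had levels of 8.46, 8.15 and 8.29 in shTNC and 8.15, 7.90 and 7.93 in shControl ECs, a difference of 0.31 ± 0.11. The lowest shTNC array had the same value as the highest shControl array, so the groups met without separating.

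Laptm5, a lysosomal membrane protein that lowers surface levels of antigen receptors, had levels of 9.47, 8.70 and 9.24 in shTNC and 8.72, 8.88 and 9.29 in shControl ECs with its lead probe set (1436905_x_at). The groups overlapped almost fully, with a difference of 0.17 ± 0.21. The other 4 Laptm5 probe sets, of which 3 were above background, had differences between -0.18 and -0.04. The sign of Laptm5 therefore changed with the probe set, and the groups overlapped with each of them.

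Coro1a, coronin 1A, had levels of 8.75, 8.68 and 9.23 in shTNC and 8.29, 8.34 and 8.56 in shControl ECs. All shTNC arrays lay above all shControl arrays, the opposite arrangement to that of Lcp2 and Samsn1, with a difference of 0.49 ± 0.16, which was 0.32 without shTNC replicate 3. Its 2 other probe sets gave 0.16 ± 0.10 and, near background, 0.06 ± 0.10. Lcp1, the actin bundling protein L-plastin, had levels of 12.03, 12.10 and 12.00 in shTNC and 12.02, 12.07 and 12.12 in shControl ECs with its lead probe set (1415983_at), a difference of -0.03 ± 0.08. Its other probe set (1448160_at) had 11.75, 12.13 and 12.09 in shTNC and 11.62, 11.56 and 11.63 in shControl ECs, with no overlap and a difference of 0.39 ± 0.11. Over all probe sets, the groups did not overlap with shTNC higher in 8.92% and with shTNC lower in 10.5%. Both Lcp1 probe sets measured the gene well above background, so the value of Lcp1 depended on the probe set.

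Was and Vav1 act directly around SLP-76 in leukocytes, Vav1 as an exchange factor that activates Rac and Was as the activator of actin branching that is mutated in Wiskott-Aldrich syndrome. Both were near background on these arrays. Was had 7.09, 6.96 and 6.95 in shTNC and 7.15, 7.11 and 7.14 in shControl ECs, a difference of -0.13 ± 0.08 between groups that did not overlap. Vav1 had 7.11, 7.30 and 7.36 in shTNC and 6.99, 7.21 and 7.38 in shControl ECs, a difference of 0.07 ± 0.12, and its second probe set gave 0.02 ± 0.12.

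**Figure D2:**
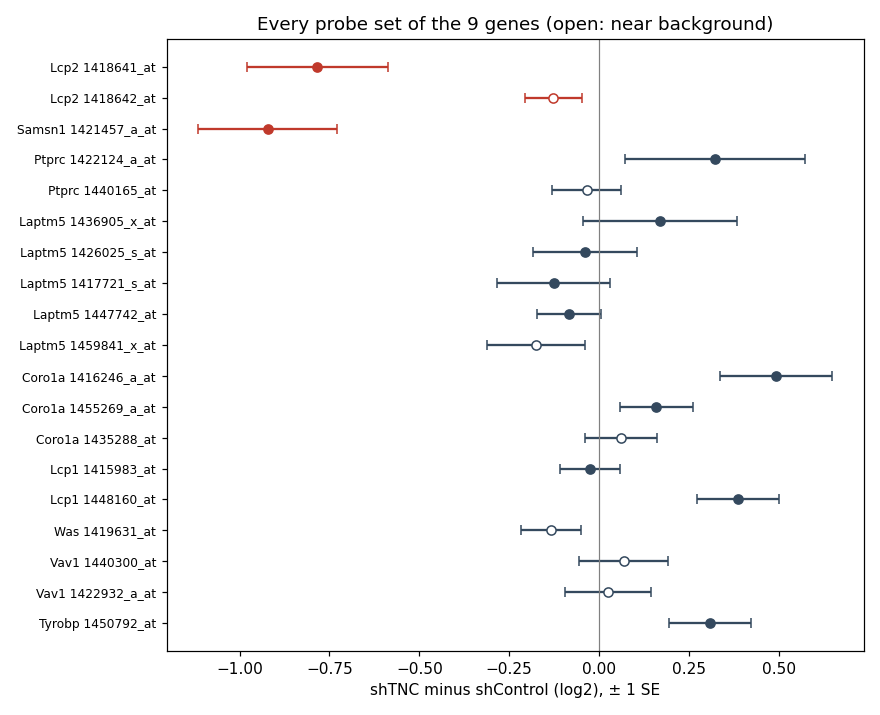
Difference of shTNC minus shControl (log2) ± 1 limma SE for each of the 19 probe sets of the 9 genes, with open circles for probe sets near background. The lead probe sets of Lcp2 and Samsn1 lie at -0.78 and -0.92, and the remaining 17 probe sets lie between -0.18 and 0.49.

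To ask whether Lcp2 and Samsn1 followed the leukocyte genes from array to array, each gene was set relative to its own mean over the 6 arrays, and the 7 pan-leukocyte genes were averaged on each array. That average was 0.15, -0.10 and 0.20 on the shTNC arrays, against -0.12, -0.18 and 0.03 on the shControl arrays. Lcp2 was at -0.49, -0.34 and -0.35 on the shTNC arrays, against 0.84, 0.36 and -0.03 on the shControl arrays. Samsn1 was at -0.77, -0.41 and -0.20 on the shTNC arrays, against 0.61, 0.09 and 0.68 on the shControl arrays. The 2 highest leukocyte averages were those of shTNC replicates 1 and 3, whereas the 3 lowest values of each adaptor were all on shTNC arrays. After the leukocyte average of the same array had been subtracted, the group difference was -0.96 ± 0.32 for Lcp2 and -1.09 ± 0.24 for Samsn1 (SE from the spread between arrays, n = 3 each), and for both genes all shTNC arrays remained below all shControl arrays. With only the 5 leukocyte genes above background it was -1.04 ± 0.33 for Lcp2 and -1.18 ± 0.25 for Samsn1. The average of the 7 genes itself differed by 0.17 ± 0.11 between groups. Since Lcp2 and Samsn1 had been selected as lower in shTNC ECs, the subtracted values largely repeat that selected difference. They serve as a description only.

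**Figure D3:**
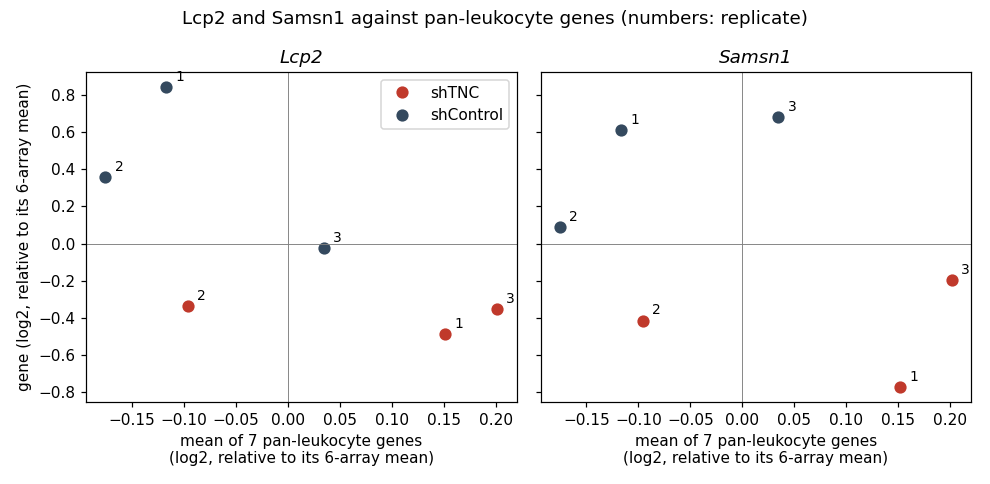
Lcp2 (left) and Samsn1 (right) on each array against the mean of the 7 pan-leukocyte genes, both in log2 relative to their mean over the 6 arrays; numbers are replicates. The shTNC arrays have the 3 lowest values of each adaptor, and 2 of them have the 2 highest leukocyte means.

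Across the 6 arrays, Lcp2 and Samsn1 had a Pearson correlation of 0.756, and one of 0.08 after each group's mean had been subtracted. Lcp2 had correlations of between -0.774 and -0.0945 with the 5 leukocyte genes above background, with a median of -0.521. For Samsn1 they lay between -0.717 and 0.256, with a median of -0.284. The 5 leukocyte genes had a median correlation of 0.469 with each other over 10 pairs, within a range of -0.679 to 0.719. Lcp1 had a negative correlation with each of the others, from -0.679 for Tyrobp to -0.157 for Laptm5. The leukocyte average thus held genes that did not vary together. After subtraction of group means, the correlations with the leukocyte genes lay between -0.672 and 0.418 for Lcp2 (median -0.341) and between -0.084 and 0.566 for Samsn1 (median -0.0052), and those among the leukocyte genes had a median of 0.128 within a range of -0.76 to 0.687. The values over all 6 arrays thus held in part the group difference on which Lcp2 and Samsn1 had been selected. All these values share the same 6 arrays, and they serve as a description only.

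The genes whose pattern over the 6 arrays was most like that of Lcp2, out of 13435 above background, were Gfpt2, which starts hexosamine synthesis (r = 0.994), the bicarbonate transporter Slc4a8 (0.994), the transcription factor IIF subunit Gtf2f2 (0.991), Arrdc2 (0.989) and Ssr4 (0.988). Gfpt2 had 9.62, 9.81 and 9.69 in shTNC and 10.83, 10.32 and 9.97 in shControl ECs, with the same order of shControl arrays as Lcp2. Those most like Samsn1 were Sez6l2 (r = 0.996), the receptor tyrosine kinase inhibitor Spry4 (0.992), Atn1 (0.991), Pik3ap1 (0.985) and Utp4 (0.981). Pik3ap1, also called BCAP, is an adaptor that links B cell and Toll-like receptors to phosphoinositide 3-kinase, and had 7.57, 7.76 and 7.78 in shTNC and 8.06, 7.86 and 8.17 in shControl ECs. The genes named here were picked as the highest of 13435 correlations over 6 arrays. Such values of r are high by that choice, and a shared function cannot be read from them. Samsn1 itself held rank 1217 among the genes most like Lcp2, and Lcp2 rank 752 among those most like Samsn1. The pan-leukocyte genes above background ranked between 8231 and 12764 for likeness to Lcp2. For likeness to Samsn1 they ranked between 4909, for Lcp1 (r = 0.256), and 12453, for Tyrobp. The ranks were taken over all 6 arrays, so they held the group difference on which Lcp2 and Samsn1 had been selected. A gene without that difference ranks low for this reason alone. The ranks serve as a description only.

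Of the genes around SLP-76, 24 of 25 listed were matched and 19 were above background. None passed an adjusted p of 0.05 in limma, as was the case for all 45101 probe sets (0.0%), 5846 of which had an unadjusted p under 0.05. At an unadjusted p under 0.05, 2 of the 24 partners were lower in shTNC ECs and 0 higher, where 7.12% of all 18194 genes were lower and 4.54% higher. The median difference was -0.07, against -0.03 over all genes. The 2 genes were Grap2 and Syk, and without shControl replicate 2 the count was 0.

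Grap2, also called GADS, is the adaptor that carries SLP-76 to LAT. It had 7.54, 7.62 and 7.66 in shTNC and 7.81, 8.07 and 7.78 in shControl ECs, a difference of -0.29 ± 0.10 (limma, adjusted p = 0.32). Syk, the kinase that phosphorylates SLP-76 in myeloid and B cells, had 10.86, 10.88 and 10.69 in shTNC and 11.33, 11.43 and 10.87 in shControl ECs, a difference of -0.40 ± 0.15 (limma, adjusted p = 0.33). The groups did not overlap for Grap2, whereas shTNC replicate 2 and shControl replicate 3 crossed narrowly for Syk. The other 3 Syk probe sets, all above background, gave -0.27 ± 0.17, -0.12 ± 0.17 and 0.08 ± 0.12. The kinase Tec differed by -0.25 ± 0.11. Skap1, near background, differed by -0.38 ± 0.17, and by -0.10 and -0.09 with its other probe sets. The enzymes Plcg1 and Plcg2 differed by 0.01 ± 0.09 and 0.10 ± 0.16. The adaptor Nck1 differed by 0.12 ± 0.09 and Nck2 by -0.15 ± 0.13. Of the 24 partners, 15 had a difference below 0, where 58.3% of all genes did.

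The relatives of Samsn1 were listed with signalling subunits of immune receptors, and all 11 were matched, with 8 above background. In shTNC ECs 3 of them were lower (unadjusted p under 0.05) and 0 higher, where 7.12% of all genes were lower and 4.54% higher. The 3 genes were Sash3, Hcst and, near background, Cd79b (-0.20 ± 0.09), which is counted again in the lymphocyte list below. The median was -0.19, and 10 of the 11 had a difference below 0, where 58.3% of all genes did. Without shControl replicate 2 the median was -0.16, with 2 genes lower and 0 higher. Sash3, also called SLY, the lymphocyte relative of Samsn1, had 7.27, 7.38 and 7.43 in shTNC and 7.60, 7.84 and 7.65 in shControl ECs, a difference of -0.34 ± 0.10 (limma, adjusted p = 0.27). Its mean in shTNC ECs lay below the background level. Sash1, the broadly expressed relative, differed by -0.01 ± 0.08 at levels far above background. Hcst, also called DAP10, a signalling subunit of immune receptors, differed by -0.27 ± 0.11 (limma, adjusted p = 0.38), and the Fc receptor subunit Fcer1g by -0.15 ± 0.18.

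The broadly expressed paralogs of the 9 genes, such as relatives of Was, Coro1a, Lcp1 and Laptm5, had a median of -0.04 over 14 matched genes. At an unadjusted p under 0.05 there were 2 lower genes and 0 higher ones, where 7.12% of all genes were lower and 4.54% higher. Without shControl replicate 2 the median was 0.01 and the count 0. Wasf2 differed by 0.13 ± 0.08 and the plastin Pls3 by 0.16 ± 0.09. Laptm4b was lower with its lead probe set (-0.19 ± 0.08), whereas another gave 0.21 ± 0.09.

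A longer list of other pan-leukocyte genes had 28 of 33 matched and 21 above background. The median difference was -0.05. At an unadjusted p under 0.05 the list had 3 lower genes and 0 higher ones, where 7.12% of all genes were lower and 4.54% higher, and 18 of 28 had a difference below 0, where 58.3% of all genes did. Without shControl replicate 2 the median was 0.01, with 2 genes lower and 1 higher. Csf2rb, the shared chain of the receptors for GM-CSF, IL-3 and IL-5, had 9.69, 10.26 and 10.31 in shTNC and 10.93, 10.54 and 10.41 in shControl ECs, a difference of -0.54 ± 0.19 (limma, adjusted p = 0.32), which was -0.34 without shTNC replicate 1, and its second probe set gave -0.34 ± 0.22. The Src-like adaptor Sla differed by -0.31 ± 0.13 with its lead probe set and by -0.05 ± 0.14 with another above background. Its near-background probe sets gave -0.25 ± 0.09 and 0.03 ± 0.15. Other leukocyte genes had values on either side of 0, with the tetraspanin Cd53 at 0.20 ± 0.19, the GTPase Rac2 at -0.29 ± 0.13 and the factor Spi1 at -0.04 ± 0.10. A near-background probe set of Rac2 gave 0.21 ± 0.10.

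**Figure D4:**
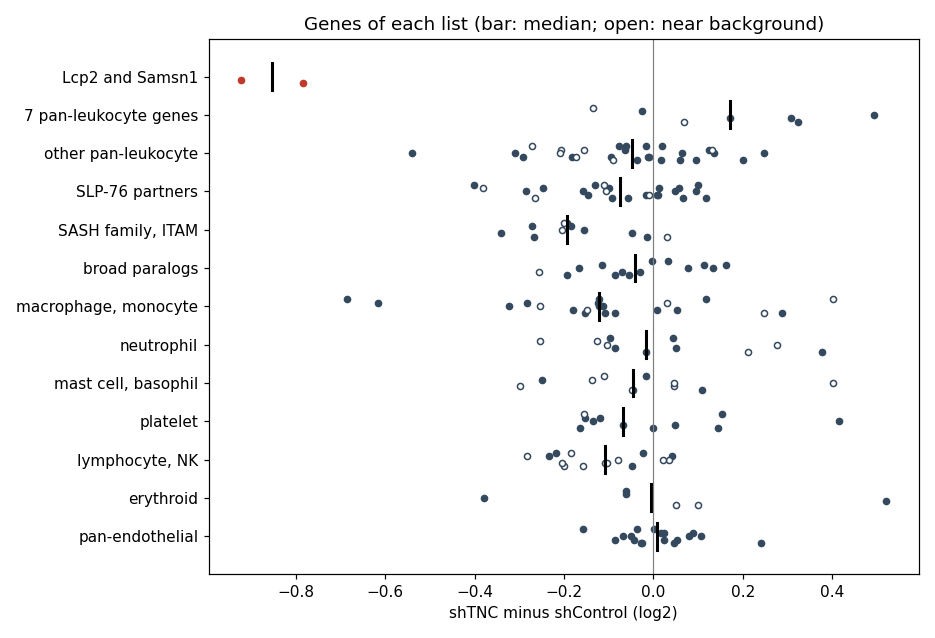
Difference of shTNC minus shControl (log2) of every matched gene of each list, 1 circle per gene, open where the gene was near background; the bar is the median of the list. Lcp2 and Samsn1 lie below every other gene shown, and the medians of the 12 other groups lie between -0.19 and 0.17.

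Markers of blood cells that could remain after the sort were read from the same arrays. Of 22 macrophage and monocyte genes, 21 were matched, and their median was -0.12. By the same unadjusted p, 4 were lower in shTNC ECs and 0 higher, where 7.12% of all genes were lower and 4.54% higher. The mean level of the list ranged between 8.44 and 8.78 on the shTNC arrays and between 8.72 and 8.79 on the shControl arrays. Relative to its mean over all arrays, it was at 0.04, -0.27 and 0.07 in shTNC and 0.09, 0.05 and 0.02 in shControl ECs. The low end was thus that of shTNC replicate 2 alone. Without shControl replicate 2 the median of the list was -0.07. The 4 genes were the mannose receptor Mrc1 (-0.62 ± 0.14), the alveolar macrophage gene Chil3 (-0.69 ± 0.21), the lipopolysaccharide co-receptor Cd14 (-0.32 ± 0.10) and the integrin Itgax (-0.28 ± 0.11), and the same count of 4 was found without shControl replicate 2. Of the 21 genes, 14 had a difference below 0 and 7 one above 0, where 58.3% of all genes were below 0. Those above background that did not pass this p were mostly below 0. Csf1r differed by -0.11 ± 0.10, C1qa by -0.12 ± 0.22, Cd68 by -0.09 ± 0.12 and Marco by -0.11 ± 0.10. Siglec1 differed by -0.18 ± 0.11, Mpeg1 by -0.12 ± 0.17, Lyz2 by -0.12 ± 0.23 and Ctss by -0.15 ± 0.16. Those above 0 were Lyz1 (0.12 ± 0.15), C1qb (0.29 ± 0.31), Fcgr1 (0.05 ± 0.15) and C1qc (0.01 ± 0.15). The near-background markers were Adgre1 (-0.15 ± 0.10), Itgam (-0.25 ± 0.17), Cd163 (0.03 ± 0.12), Ms4a7 (0.25 ± 0.25) and Ccr2 (0.40 ± 0.29). The part of these cells in the values of Lcp2 and Samsn1 was not tested.

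The other blood cell lists had medians between -0.11 and -0.0048. By the same unadjusted p, 7.12% of all genes were lower and 4.54% higher. At that p, the platelet and megakaryocyte list had 0 lower and 1 higher of 11 genes with a median of -0.07. The higher one was Tubb1, at 0.41 ± 0.11. The mast cell and basophil list had -0.05 over 11 genes, with 2 lower and 1 higher, and 7 of them near background, the mast cell genes Cpa3 and Tpsb2 included. Kit (12.49 to 12.89) and Gata2 (12.91 to 13.09) of this list were far above background, and whether their RNA came from such cells was not tested. Neutrophil genes had -0.02 over 11 genes with 1 lower and 0 higher, lymphocyte and natural killer genes -0.11 over 15 genes with 2 lower and 0 higher, 10 of them near background, and erythroid genes -0.0048 over 6 genes with 0 lower and 1 higher. The pan-endothelial list, by comparison, had a median of 0.01 over 18 genes, all above background, with 0 lower and 1 higher, Sox17. Without shControl replicate 2, the platelet median was 0.12 with 2 genes higher, the erythroid median 0.07 and the neutrophil median -0.07 with 1 lower and 1 higher, the mast cell list had 1 lower and 1 higher, and the lymphocyte and pan-endothelial lists had 0 genes past the same p.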

How the data were processed

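RNA of 3 shTNC and 3 shControl samples was measured with 1 array each on GeneChip Mouse Genome arrays, after 3′ labelling from 2 ng of total RNA per the labels. The authors normalized the raw array files by RMA in Chipster, and the deposited values are log2 levels per probe set. The sorted values of any pair of arrays differed by at most 0.07. Whether the values are RMA summaries was not settled from the values alone, since the raw files were not used here. Symbols were those of the platform annotation, and 34958 probe sets carried 1 symbol. limma 3.58.1 was run under R 4.3.3 with lmFit and eBayes as a two-sided comparison of the groups over all 45101 probe sets without a filter, with Benjamini-Hochberg adjustment. The fit was tested on simulated data. The samples are labelled as biological replicates, and with so few arrays the precision is limited.

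The genes, the lists and the tests were chosen with earlier results of these data known. The lists were compiled from general knowledge, with 175 of 191 entries in 12 lists matched to a symbol and the others not analysed here. Some genes, such as Cd3e, Cd79a and Cd79b, were in several lists, so the counts of different lists are not separate. Named genes were the 9 genes, up to 4 genes with the smallest p of each list, the genes of the sort, and the 5 genes most like each adaptor. Plcg1, Plcg2, Nck1, Nck2, Sash1, Fcer1g, Cd53, Spi1, the further macrophage and monocyte genes and near-background markers were added after their values had been seen. Alternatives were quantile normalization, median centring, array weights, a robust eBayes fit with an intensity trend, removal of dim probe sets, a replicate block, the mean of a gene's probe sets and leaving out each array.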

Additional observations from a re-analysis of the deposited data

How the results depend on the processing

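The direction of Lcp2, Samsn1 and the leukocyte median was kept under all alternatives run. With the mean of all probe sets, Lcp2 differed by -0.455, and by -0.56 after subtraction of the leukocyte mean. With single arrays left out, Lcp2 lay between -0.992 and -0.557, Samsn1 between -1.11 and -0.766, and after subtraction of the leukocyte mean Lcp2 lay between -1.22 and -0.714 and Samsn1 between -1.24 and -0.904. The median of the 7 leukocyte genes was 0.308 with probe sets near background left out, also as an alternative added after the data were seen, and 0.049 to 0.383 with single arrays left out. The median of the SLP-76 partners was -0.0173 without probe sets near background and -0.0934 to -0.0405 with single arrays left out, and that of the other leukocyte genes ran from -0.108 to 0.0264. The count of limma calls over all probe sets was 0, and it was 9 with an intensity trend and robust eBayes, 82 at the methods' thresholds, 5846 at an unadjusted p under 0.05, and 0 to 4 with single arrays left out (2 without shControl replicate 1, 4 without shControl replicate 3). The count lower at an unadjusted p under 0.05 was 2842, against 1883 to 3603 with single arrays left out. The cause of these shifts was not tested. The deviations of same-numbered arrays had correlations of -0.11, 0.04 and 0.14 over the probe sets above background. No common pairing by replicate number was seen there, but pairing that touches only some genes cannot be told from these values. With the replicate number as a block, Lcp2 stayed at -0.784, Samsn1 at -0.922, the leukocyte median at 0.17, and the calls at 0. Dim probe sets such as those of Was and Vav1 lie within the range of background, so that their differences are limited by signal.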
